A study of Mus musculus with 17 samples.

Results

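The genes of synaptic vesicle release were examined in the hippocampus of mice kept awake and of mice left undisturbed. The group was a list of 53 gene symbols covering vesicle proteins, calcium sensors, membrane fusion proteins, active zone scaffolds, Rab3 proteins, vesicular glutamate transporters and endocytosis proteins. A gene was measured when a probe set of the array carried its symbol and no other, which held for 52 of the 53 and not for Sytl5, out of 18193 genes measured in all. Each gene was read through its brightest probe set, the set of short probes with the highest mean over all arrays, and the 78 other probe sets of these genes served as a check.

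Both groups were male C57BL/6J mice, aged 2 months in the sample labels and 2 to 4 months in the housing protocol, kept singly under 12 h of light and 12 h of dark and handled daily for 6 days. In the first group 8 mice were deprived of sleep for 5 h in the home cage by gentle handling, and in the second 9 mice were not disturbed. The 17 animals were separate biological replicates with 1 Affymetrix array each, and dissections alternated between the groups. The comparison asks which transcripts differ after 5 h of enforced waking, and since no mice were handled during those 5 h and allowed to sleep, that handling and sleep loss cannot be told apart.

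Transmitter is stored in vesicles that dock at the active zone, a protein scaffold opposite the receiving cell, where priming proteins bring SNARE proteins of vesicle and plasma membrane together. Calcium entering with the action potential binds synaptotagmins and related proteins with C2 domains, the membranes fuse, and the vesicle membrane is recovered by endocytosis. In the hippocampus most of these terminals release glutamate, and the amount released per impulse varies with synaptic plasticity.

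All values below are log2 signals, differences are sleep-deprived minus undisturbed, and a gene was called when limma's adjusted p over all 18193 genes was under 0.05. Array medians lay between 6.14 and 6.22, and the number of arrays limits the precision. Sleep-deprived replicate 5 stood apart in RNA quality, with a signal of 3' over 5' control probe sets of 0.417 against 0.199 to 0.302 in the other arrays. The mean of 12 measured choroid plexus markers, of 14 listed, ran from 5.49 to 6.94 in undisturbed and from 5.52 to 7.20 in sleep-deprived arrays. It was above 6.8 in 4 arrays, undisturbed replicate 9 and sleep-deprived replicates 3, 5 and 7. By limma none of these 12 genes was called, 1 had an unadjusted p under 0.05, and none was called by an exact rank-sum test. The mean of 12 pan-neuronal markers lay between 11.35 and 11.50 in undisturbed and between 11.24 and 11.49 in sleep-deprived arrays, again with none called by either test and 1 at an unadjusted p under 0.05. Among glial and vascular markers Gjb6 of 10 astrocyte genes was higher, and Opalin of 9 oligodendrocyte genes and Tek and Slco1a4 of 9 endothelial genes were lower. The samples were whole tissue, in which fewer cells of a type and less RNA per cell cannot be told apart.

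After sleep deprivation 3 of the 52 genes were called (5.77%), where 3.97% of all genes were. Sytl2 and Doc2a fell (2.73% of all genes did) and Doc2b rose (1.25% of all genes did). All 3 are in the role group of synaptotagmin-like, Doc2 and rabphilin genes. The role groups were chosen with earlier results of these data known, so the shared group is a description and not independent evidence. Sytl2 and Doc2a were also the only members whose groups of arrays did not overlap, a separation found in 0.731% of all genes. At an unadjusted p under 0.05 there were 9 members (17.3%), against 18.6% of all genes. The median difference of the 52 was -0.050 and 38 of them (73.1%) were negative, beside a median of 0.0016 and 49.2% negative over all genes. The mean difference was -0.049 for the members and -0.0032 over all genes. Neuronal markers leaned the same way, with a mean difference of -0.044 for 12 pan-neuronal, -0.053 for 11 GABAergic neuron and -0.035 for 11 hippocampal excitatory genes. The last list includes the member Slc17a7. Glial and vascular lists went both ways, so the lean was not particular to neurons. Their means were -0.090 for oligodendrocyte, -0.079 for endothelial, 0.033 for astrocyte and 0.0073 for microglia genes. With quantile normalization or cyclic loess the members' median was -0.024 or -0.022 with 36 negative, and with median centring it was -0.068 with 41 negative. The medians of all genes under these 3 scalings were 0.0048, 0.0025 and -0.016. The calls over all genes split into 227 higher and 496 lower, and with these 3 scalings into 335 and 390, 340 and 432, and 142 and 611.

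Of the 49 members that were not called, 43 had a 95% confidence interval, at the brightest probe set, that excluded a 1.2-fold change in either direction. The 6 others were Pclo, Syt13, Syt9, Unc13a, Unc13c and Slc17a6. The share of all genes with such an interval was not computed, so the count is not shown to be particular to these genes. Among the 43 are the dim genes Sv2c, Sytl4 and Syt6, with means over all arrays of 4.46, 5.58 and 5.51, where differences are compressed. Dimmer probe sets of some of the 43 did not exclude a 1.2-fold change. Their bounds reached -0.30 for Rims2, -0.35 for Dnm1 and 0.31 for Bsn, so the count does not show these genes to be unchanged. The bounds of the 49 intervals reached from -0.48 to 0.29. The median SE of a difference was 0.055 for the members and 0.055 for all genes. Animals of a group differed most in Unc13c, with a within-group SD of 0.29, and in Slc17a6, with 0.27, where the median over the members was 0.115.

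**Figure D1:**
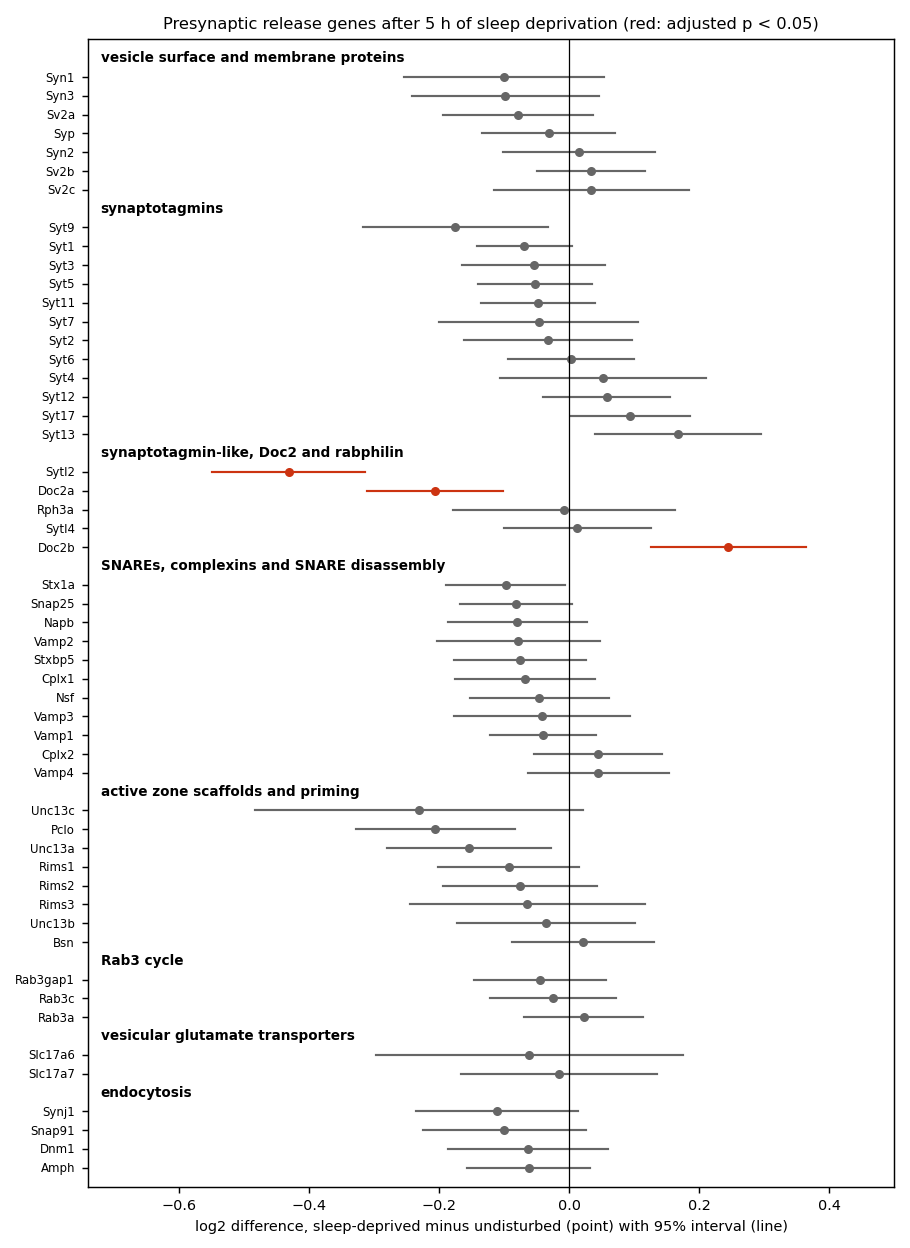
Log2 differences (sleep-deprived minus undisturbed) of the 52 measured genes, grouped by role, with 95% confidence intervals from limma. The 3 called genes, Sytl2, Doc2a and Doc2b, stand in the same role group, and most other intervals lie close to 0. The role groups were chosen with earlier results of these data known.

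The largest difference among the 52 was that of Sytl2, which encodes a tandem C2-domain protein that binds Rab27 on secretory vesicles. Its signal in undisturbed mice ran from 8.88 to 9.20 with a median of 8.97, and in sleep-deprived mice from 8.47 to 8.78 with a median of 8.59. Every sleep-deprived animal was below every undisturbed one. The mean fell from 9.03 ± 0.14 (SD, n = 9) to 8.60 ± 0.096 (SD, n = 8), a difference of -0.43 (SE 0.056, 95% interval -0.55 to -0.31, limma adjusted p = 0.00019), or 1.35-fold. This gene has a single probe set, and its call held when any 1 array was left out (-0.46 to -0.41).

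Doc2a and Doc2b encode soluble high-affinity calcium sensors, which have been assigned to spontaneous and asynchronous release, Doc2a mainly at glutamatergic and Doc2b at GABAergic terminals of hippocampal neurons. The signal of Doc2a ran from 7.52 to 7.77 with a median of 7.57 in undisturbed mice and from 7.23 to 7.52 with a median of 7.38 in sleep-deprived mice. The groups did not overlap, though their nearest animals almost met. The mean fell from 7.60 ± 0.086 (SD, n = 9) to 7.39 ± 0.12 (SD, n = 8), by 0.21 (SE 0.050, limma adjusted p = 0.023). Without sleep-deprived replicate 3 the adjusted p was 0.052, and without sleep-deprived replicate 5 it was 0.051.

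The signal of Doc2b went the other way, from 9.97 to 10.47 with a median of 10.25 in undisturbed mice to 10.38 to 10.61 with a median of 10.50 in sleep-deprived mice. The groups overlapped through a single undisturbed animal, while 5 of the 8 sleep-deprived animals lay above all undisturbed ones. The mean rose from 10.25 ± 0.15 (SD, n = 9) to 10.50 ± 0.088 (SD, n = 8), by 0.24 (SE 0.058, limma adjusted p = 0.018). A second, dimmer probe set of Doc2b was higher by 0.27 and did not pass over all probe sets (limma adjusted p = 0.062), and the 2 probe sets did not differ detectably from each other (difference 0.027, SE 0.089, limma adjusted p = 0.93).

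In the 3 sleep-deprived arrays rich in choroid plexus markers Doc2a was at 7.23 to 7.33, against 7.35 to 7.52 in the other 5. For Sytl2 these ranges were 8.47 to 8.62 and 8.56 to 8.78, and for Doc2b 10.38 to 10.56 and 10.41 to 10.61. Leaving out the 4 arrays rich in these markers kept 8 undisturbed and 5 sleep-deprived arrays. Sytl2 alone of the members was then called, of 185 genes in all (1.02%). Doc2b was at 0.24 (limma adjusted p = 0.14) and Doc2a at -0.14 (limma adjusted p = 0.26). The part of the smaller number of arrays in these lost calls was not tested. With the marker mean as a covariate all 3 genes were called.

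Of the same family Rph3a, encoding the Rab3 effector rabphilin, was at -0.0080 (limma adjusted p = 0.97) and Sytl4, encoding granuphilin, at 0.013 (limma adjusted p = 0.93). Of the wider pathway list, 3 more genes belong to this family and were not called: Rph3al at 0.15 (limma adjusted p = 0.11), Doc2g at 0.035 (0.76) and Sytl1 at 0.035 (0.82). Sytl4 was dim, with a mean signal of 5.57 in undisturbed mice; as a guide to unspecific signal, 18 genes of other organs had a median of 4.74.

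**Figure D2:**
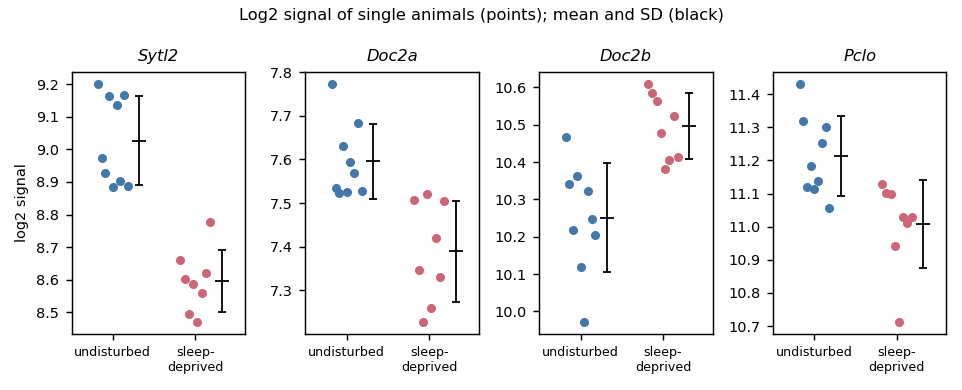
Log2 signal of each animal for Sytl2, Doc2a, Doc2b and Pclo, undisturbed against sleep-deprived, with mean and SD in black and a separate axis range per panel. All sleep-deprived animals lie below all undisturbed ones for Sytl2 and Doc2a, and 5 of 8 lie above them for Doc2b, while the ranges of Pclo, which was not called, overlap.

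Among the scaffolds and priming proteins of the active zone 0 of 8 genes were called by limma and 7 were negative, with a median difference of -0.084. At an unadjusted p under 0.05 there were 2, and the exact rank-sum test called 1, Pclo. Pclo encodes piccolo, a giant scaffold that clusters vesicles and organises actin at the active zone. Its signal ran from 11.06 to 11.43 with a median of 11.18 in undisturbed mice and from 10.71 to 11.13 with a median of 11.03 in sleep-deprived mice. All 8 sleep-deprived animals were below the undisturbed mean, 5 of them below every undisturbed animal. The difference of -0.21 (SE 0.059, limma adjusted p = 0.051) missed the threshold narrowly. It passed without undisturbed replicate 5, undisturbed replicate 9 or sleep-deprived replicate 1 (limma adjusted p = 0.045, 0.039 and 0.042), and with RNA quality as a covariate (limma adjusted p = 0.037). Without sleep-deprived replicate 5, its lowest array, the difference was -0.16 (limma adjusted p = 0.098).

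The probe sets of Pclo did not move together. The dimmer of the remaining 2 was at 0.012, and the brighter of them at 0.12 (limma adjusted p = 0.26). The latter differed from the brightest by 0.33 (SE 0.059, limma adjusted p = 0.0070 over 16752 such pairs), and was the only 1 of 78 member probe sets to differ, where 1.3% of all pairs did. Leaving out any 1 array kept that difference between 0.29 and 0.35. With the mean of all 3 probe sets Pclo was at -0.024 (limma adjusted p = 0.84). Over all probe sets 3 of the members' 130 were called, the brightest of Sytl2, Doc2a and Doc2b, where 1.81% of all probe sets were called.

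**Figure D3:**
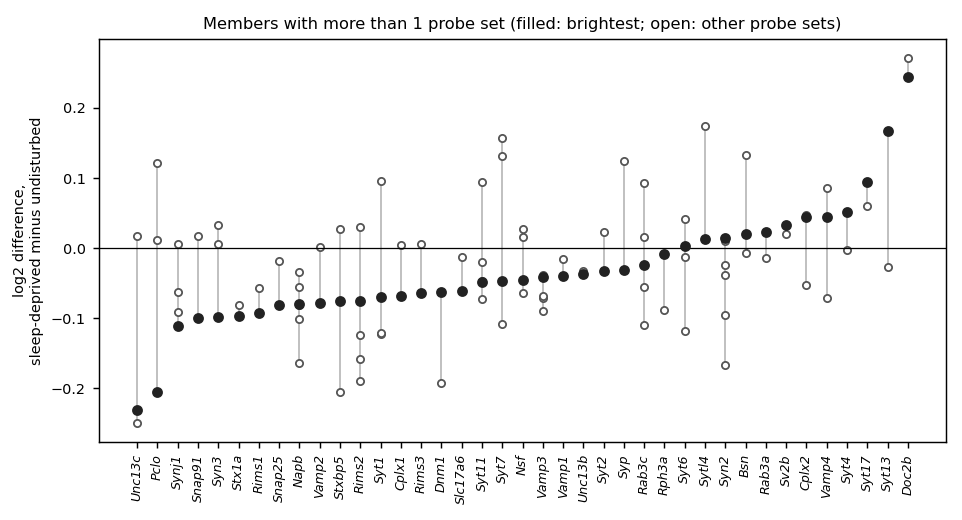
Log2 difference (sleep-deprived minus undisturbed) of each probe set of the 39 members with more than 1, with the brightest of a gene as a filled and the others as open circles. Of the 78 other probe sets 44 have the sign of the brightest and 34 the opposite sign, and a dimmer probe set of Pclo differs from the brightest by 0.33.

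The promoter of Pclo is shown because this gene lay nearest to the threshold among members with a RefSeq promoter window. RefSeq windows of assembly GRCm38.p6, the 250 bases before a gene's start, were at hand for 39 of the 53 genes. Windows were not at hand for Syn3, Syt4, Syt5, Syt7, Syt12, Syt13, Syt17, Sytl2, Doc2a, Doc2b, Snap25, Vamp2, Vamp3 and Rims2. In the Pclo window, chr5:14514668-14514917 on the plus strand, capitals mark the letters GGGCGG of a GC box, the site bound by Sp1-type factors.
Pclo: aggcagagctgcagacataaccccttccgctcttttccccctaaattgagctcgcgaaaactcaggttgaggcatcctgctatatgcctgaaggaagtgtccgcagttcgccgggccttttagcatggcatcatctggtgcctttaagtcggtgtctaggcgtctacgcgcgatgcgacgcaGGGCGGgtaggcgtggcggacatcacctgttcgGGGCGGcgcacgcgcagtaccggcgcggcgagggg
The window holds 2 GC boxes near its start-site end. On either strand GGGCGG was found in 31 of the members' 53 windows (58.5%), as some genes have several starts, and in 32.7% of all 32851 windows of the table. The E-box CACGTG was found in 6 of the 53 (11.3%) and in 6.02% of all windows. A match describes letters in a window and does not show binding.

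Unc13a encodes Munc13-1, the priming factor without which glutamatergic vesicles do not become release-ready. Its signal ran from 8.81 to 9.16 with a median of 9.05 in undisturbed mice and from 8.67 to 9.00 with a median of 8.85 in sleep-deprived mice. All 8 sleep-deprived animals lay below the undisturbed mean and the groups overlapped (-0.15, SE 0.061, limma adjusted p = 0.17). Rims1, encoding a scaffold that tethers vesicles and calcium channels, was at 10.76 to 11.01 with a median of 10.94 in undisturbed mice and 10.61 to 10.98 with a median of 10.86 in sleep-deprived mice. These ranges overlapped (-0.093, SE 0.052, limma adjusted p = 0.35). The remaining 5 genes of the group, Rims2, Rims3, Unc13b, Unc13c and Bsn, ran from -0.23 for Unc13c (limma adjusted p = 0.32) to 0.021 for Bsn.

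None of the 12 synaptotagmins was called by limma or by the exact rank-sum test, and 3 had an unadjusted p under 0.05. Their median difference was -0.040 and 7 were negative. Syt1 encodes the fast calcium sensor of most forebrain synapses. Its signal ran from 13.50 to 13.64 with a median of 13.59 in undisturbed mice and from 13.42 to 13.57 with a median of 13.51 in sleep-deprived mice. All 8 sleep-deprived animals lay below the undisturbed mean, in overlapping ranges (-0.069, SE 0.035, 95% interval -0.14 to 0.0037, limma adjusted p = 0.29). Its other 3 probe sets were at -0.12, -0.12 and 0.096.

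Syt2, the fast sensor of hindbrain terminals and of some interneurons, was dim here, at 6.35 to 6.69 with a median of 6.60 in undisturbed mice and 6.39 to 6.797 with a median of 6.46 in sleep-deprived mice. The ranges lay on top of each other (-0.032, SE 0.062, limma adjusted p = 0.82). Syt4 encodes a synaptotagmin with a first C2 domain that does not bind calcium and whose transcript responds to neuronal activity. It was at 9.71 to 10.35 with a median of 10.21 in undisturbed mice and 9.92 to 10.39 with a median of 10.20 in sleep-deprived mice. No difference was detectable (0.052, SE 0.076, 95% interval -0.11 to 0.21, limma adjusted p = 0.75). Syt11, a relative of Syt4, was at 12.43 to 12.57 with a median of 12.52 in undisturbed mice and 12.30 to 12.59 with a median of 12.43 in sleep-deprived mice. The sleep-deprived animals spread to both sides of the undisturbed range (-0.048, SE 0.042, limma adjusted p = 0.58).

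Syt13, which encodes a member that lacks calcium-binding residues, was at 9.99 to 10.50 with a median of 10.32 in undisturbed mice and 10.33 to 10.59 with a median of 10.41 in sleep-deprived mice. All 8 sleep-deprived animals were above the undisturbed mean (0.17, SE 0.061, limma adjusted p = 0.14). It was called with quantile normalization and with cyclic loess, and its other probe set was at -0.027. The lowest value among synaptotagmins was that of Syt9, at -0.17 (SE 0.068, limma adjusted p = 0.16). The other 6, Syt3, Syt5, Syt6, Syt7, Syt12 and Syt17, lay between -0.054 and 0.094.

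Of the 11 genes for SNAREs, complexins and SNARE disassembly none was called by limma or the exact rank-sum test, 1 had an unadjusted p under 0.05, and 9 were negative with a median of -0.068. Stx1a encodes syntaxin-1A, the plasma membrane SNARE. It was at 10.76 to 10.94 with a median of 10.87 in undisturbed mice and 10.59 to 10.87 with a median of 10.76 in sleep-deprived mice. Of the 8 sleep-deprived animals 4 lay below every undisturbed one (-0.097, SE 0.044, limma adjusted p = 0.24). Snap25, encoding its partner on the same membrane, was at 13.62 to 13.74 with a median of 13.65 in undisturbed mice and 13.46 to 13.71 with a median of 13.60 in sleep-deprived mice. Here too 4 sleep-deprived animals lay below the undisturbed range and the others within it (-0.081, SE 0.041, limma adjusted p = 0.30).

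Vamp2 encodes synaptobrevin-2, the vesicle SNARE. Its signal was 12.28 to 12.70 with a median of 12.50 in undisturbed mice and 12.11 to 12.54 with a median of 12.45 in sleep-deprived mice, and the ranges overlapped (-0.078, SE 0.060, limma adjusted p = 0.51). Complexins clamp and then promote fusion of the assembled SNAREs. Cplx1 was at 12.57 to 12.85 with a median of 12.72 in undisturbed mice and 12.44 to 12.83 with a median of 12.67 in sleep-deprived mice (-0.068, SE 0.052, limma adjusted p = 0.50). Cplx2 was at 12.24 to 12.60 with a median of 12.51 in undisturbed mice and 12.40 to 12.59 with a median of 12.52 in sleep-deprived mice (0.045, SE 0.048, limma adjusted p = 0.65). Neither complexin gene separated the groups. The other 6 genes of the group, Vamp1, Vamp3, Vamp4, Stxbp5, Nsf and Napb, lay between -0.080 and 0.045.

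**Figure D4:**
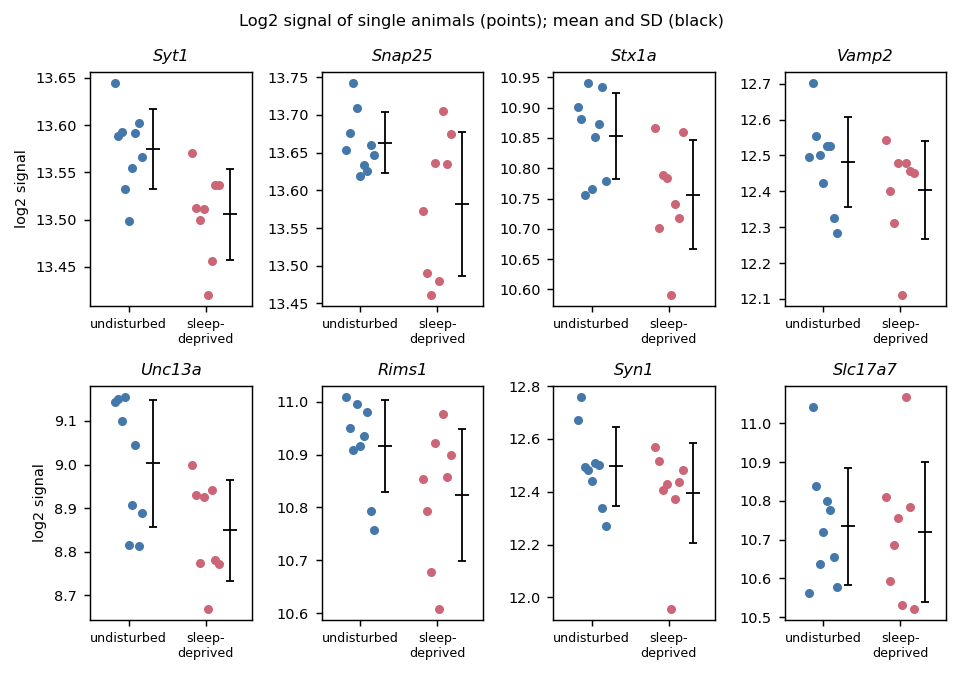
Log2 signal of each animal for 8 core genes of release, Syt1, Snap25, Stx1a, Vamp2, Unc13a, Rims1, Syn1 and Slc17a7, undisturbed against sleep-deprived, with mean and SD in black and a separate axis range per panel. The ranges of the groups overlap in every panel, and none of these 8 genes was called.

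Vesicle surface and membrane proteins gave 0 calls among 7 genes by limma and by the exact rank-sum test, with 0 at an unadjusted p under 0.05. Their median was -0.032, with 4 negative. Syn1, encoding synapsin I, which ties vesicles into the reserve pool, was at 12.27 to 12.76 with a median of 12.49 in undisturbed mice and 11.96 to 12.57 with a median of 12.43 in sleep-deprived mice. The lowest value came from sleep-deprived replicate 5, and the next was 12.37. Its difference was -0.10 (SE 0.074, limma adjusted p = 0.49), and -0.037 (limma adjusted p = 0.81) without that array. Syp encodes synaptophysin, an abundant vesicle membrane protein. It was at 12.02 to 12.36 with a median of 12.09 in undisturbed mice and 12.01 to 12.21 with a median of 12.11 in sleep-deprived mice, so that no difference was detectable (-0.032, SE 0.049, limma adjusted p = 0.77). The others, Syn2, Syn3, Sv2a, Sv2b and Sv2c, ran from -0.098 to 0.034. Sv2c was at the level of unspecific signal, with a mean of 4.45 in undisturbed mice.

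The vesicular glutamate transporters, which fill vesicles, gave no call by limma or by the exact rank-sum test and 0 at an unadjusted p under 0.05. Slc17a7, encoding VGLUT1 of hippocampal and cortical excitatory neurons, was at 10.56 to 11.04 with a median of 10.72 in undisturbed mice and 10.52 to 11.07 with a median of 10.72 in sleep-deprived mice. The groups coincided (-0.015, SE 0.073, 95% interval -0.17 to 0.14, limma adjusted p = 0.94). Slc17a6, encoding VGLUT2, which is the form of thalamic and other subcortical afferents, was at 8.55 to 9.24 with a median of 8.86 in undisturbed mice and 8.40 to 9.25 with a median of 8.92 in sleep-deprived mice. Its spread within groups was wide, and its interval reached from -0.30 to 0.17 (difference -0.062, limma adjusted p = 0.81). The mean of 12 thalamus and habenula markers was 6.92 to 7.02 in undisturbed and 6.90 to 7.01 in sleep-deprived arrays.

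Rab3 proteins recruit effectors to vesicles in their active form. Rab3a was at 12.53 to 12.74 with a median of 12.65 in undisturbed mice and 12.55 to 12.82 with a median of 12.66 in sleep-deprived mice (0.023, SE 0.044, limma adjusted p = 0.82). Rab3c and Rab3gap1, the catalytic subunit of a Rab3 GTPase-activating protein, were at -0.025 and -0.044. Among the 4 endocytosis genes all were negative, with a median of -0.081. Dnm1, encoding the neuronal dynamin that pinches off vesicles, was at 12.99 to 13.31 with a median of 13.12 in undisturbed mice and 12.76 to 13.28 with a median of 13.08 in sleep-deprived mice (-0.063, SE 0.059, limma adjusted p = 0.61), and its second, dimmer probe set was at -0.19 (SE 0.079, limma adjusted p = 0.24 over all probe sets). Amph, Snap91 and Synj1, encoding amphiphysin, the clathrin adaptor AP180 and synaptojanin 1, lay at -0.062, -0.099 and -0.11. In both groups of genes limma and the exact rank-sum test called 0, and 0 had an unadjusted p under 0.05.

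The wider presynaptic pathway was read from 90 measured genes, of 100 listed, that are not among the 52. Of these 2 were higher and 2 lower (4.4%, where 3.97% of all genes were called), and 60 were negative with a median of -0.040. At an unadjusted p under 0.05 there were 25 (27.8%), 21 of them lower, against 18.6% of all genes, where 1985 of 3377 were lower. Syt14, a synaptotagmin without calcium-binding residues, was at 8.01 to 8.38 with a median of 8.27 in undisturbed mice and 7.77 to 8.19 with a median of 7.96 in sleep-deprived mice. All 8 sleep-deprived animals lay below the undisturbed mean, and it fell by 0.25 (SE 0.063, limma adjusted p = 0.028). Stx3, a syntaxin of ribbon synapses and dendrites, fell by 0.28 (SE 0.076, limma adjusted p = 0.041), while a dimmer probe set of this gene departed from it (limma adjusted p of that departure = 0.044). Snap23, a widely expressed relative of Snap25, rose by 0.18 (SE 0.044, limma adjusted p = 0.028), while its other 2 probe sets were at 0.031 and -0.0037. Rims4, encoding a short form of the RIM family, rose by 0.28 (SE 0.073, limma adjusted p = 0.034), with 7 of 8 sleep-deprived animals above every undisturbed one, while its other probe set was at -0.066. With the mean of all probe sets Stx3 was at -0.057, Snap23 at 0.068 and Rims4 at 0.11, and none of these 3 was called (limma adjusted p = 0.59, 0.39 and 0.23).

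By list, 1 of 21 SNARE proteins and regulators was higher and 1 lower, 1 of 12 further calcium sensors was lower, and 1 of 22 active zone and Rab3 genes was higher. At an unadjusted p under 0.05 these 3 lists held 7, 6 and 7 genes, of which 6, 5 and 5 were lower. Of 15 further vesicle proteins and 20 further endocytosis genes none was called by limma or by the exact rank-sum test, and 2 and 3 had an unadjusted p under 0.05. These 4 calls were less steady than that of Sytl2. Leaving out 1 array lost Stx3 in 11, Rims4 in 9, Syt14 in 6 and Snap23 in 4 of the 17 cases. The count was 1 without undisturbed replicate 3, 4, 7 or 8 or sleep-deprived replicate 3, 2 without sleep-deprived replicate 5, 0 without sleep-deprived replicate 7 (24 at an unadjusted p under 0.05) and 7 without undisturbed replicate 5. The exact rank-sum test called 0 of the 90, with 23 at an unadjusted p under 0.05.

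The members also varied from animal to animal within the groups. After each group's mean was subtracted, correlations over the 17 arrays were computed for all 1326 pairs of members. The mean r was 0.21, and 163 pairs had a permutation p adjusted over the 1326 under 0.05, of which 153 were positive and 10 negative. An r of at least 0.6 was reached by 15.5% of the member pairs. Over all pairs of the 18193 genes, many of them dim, the mean r was 0.014 and 2.60% reached 0.6, with no test of the difference. The pairs named here were chosen after their values were seen, and all arrays share a normalization. RNA quality and dissection also vary between these arrays, and their part in the correlations was not tested.

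A first set, picked by hand, holds Syn1, Syn2, Dnm1, Synj1 and Nsf, genes of vesicle tethering, recycling and SNARE disassembly. Its genes also correlated with members of other roles. For Pclo r was 0.89 with Synj1 and 0.88 with Dnm1, as high as for pairs within the set. Synj1 and Syt1 reached 0.83, as did Syn2 and Bsn. Outside the set Rab3c and Rims2 reached r = 0.91. For Dnm1 and Syn2, encoding synapsin II, r was 0.95 (permutation p = 1e-05, the smallest 100000 permutations can give, adjusted p = 0.0027) and rho 0.85 (permutation p = 1e-05). Without the 2 arrays farthest from the median of Dnm1 or of Syn2 it was 0.90 or 0.89, and without sleep-deprived replicate 5 it was 0.91. Dnm1 and Synj1 gave r = 0.94 and rho = 0.89, and Nsf, encoding the ATPase that takes SNARE complexes apart, gave r = 0.93 and rho = 0.89 with Synj1. These relations held without sleep-deprived replicate 5 (0.88 and 0.90). Syn1 and Synj1 rested more on that array, with r = 0.83 and 0.64 without it.

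Slc17a6 had 4 partners with an adjusted p of r under 0.05 among the members: Rims3, encoding a short RIM protein, Unc13c, encoding Munc13-3, Syt2 and Vamp1, encoding synaptobrevin-1. For Slc17a6 and Rims3 r was 0.88 (permutation p = 1e-05, adjusted p = 0.0027) and rho 0.89 (permutation p = 2e-05), with 0.88 within undisturbed and 0.90 within sleep-deprived animals. Without the 2 arrays farthest from the median of either gene r was 0.83 or 0.86. For Slc17a6 and Unc13c r was 0.74 (permutation p = 0.0019, adjusted p = 0.023) and rho 0.67 (permutation p = 0.0060), and 0.67 or 0.77 without the 2 farthest arrays. For Slc17a6 and Syt2 r was 0.71 (permutation p = 0.0032, adjusted p = 0.032) and rho 0.72 (permutation p = 0.0022), and 0.59 or 0.62 without the 2 farthest arrays. For Slc17a6 and Vamp1 r was 0.68 (permutation p = 0.0045, adjusted p = 0.039) and rho 0.66 (permutation p = 0.0061), and 0.60 or 0.76 without the 2 farthest arrays. Within undisturbed and sleep-deprived animals r was 0.44 and 0.91 for Vamp1, 0.61 and 0.86 for Unc13c, and 0.60 and 0.77 for Syt2. The adjusted permutation p of rho was 0.0038 for Rims3 and 0.040 for Syt2. For Unc13c and Vamp1 it was 0.067 and 0.067, so these partners did not pass by rho. With the first set Slc17a6 showed little relation: its r with Dnm1 was 0.017 and with Synj1 -0.0028. None of these 5 genes differed detectably between undisturbed and sleep-deprived mice.

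**Figure D5:**
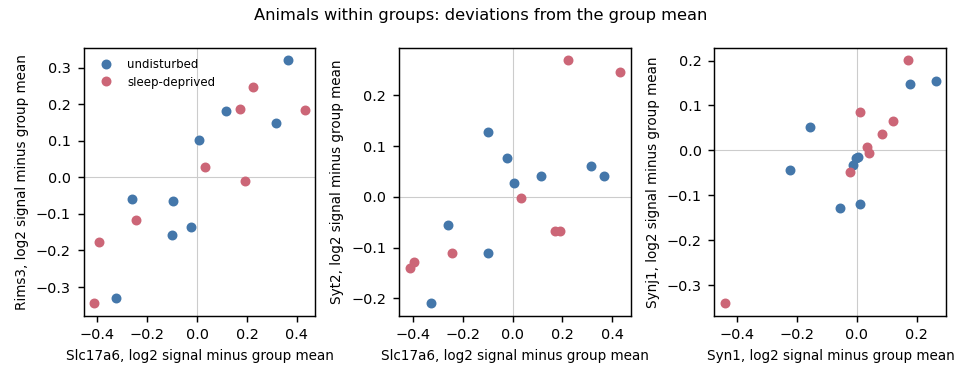
Deviation of each of the 17 animals from its group mean, in log2 units, for Rims3 and Syt2 against Slc17a6 and for Synj1 against Syn1, with undisturbed and sleep-deprived animals in separate colours. Rims3 and Slc17a6 rise together in both groups (r = 0.88), and the relation of Synj1 to Syn1 has sleep-deprived replicate 5 at its lower left end.

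The promoter windows of these genes are shown so that Slc17a6 and 2 of its partners can be set beside Syn1 of the first set. They come from RefSeq, GRCm38.p6, 5' to 3' on the gene's own strand. The windows are chr7:51621580-51621829 for Slc17a6, chr4:120854549-120854798 for Rims3 and chr1:134646362-134646611 for Syt2, all on the plus strand, and chrX:20920919-20921168 on the minus strand for Syn1. Slc17a6 and Syt2 each have 2 windows, of which the first is shown. Capitals mark GC boxes (GGGCGG, or CCGCCC on the other strand), and in Syn1 the letters TGACGTCA of a cyclic AMP response element and TTCAGCACC of an RE1 site fragment, part of the element that the repressor REST binds.
Slc17a6: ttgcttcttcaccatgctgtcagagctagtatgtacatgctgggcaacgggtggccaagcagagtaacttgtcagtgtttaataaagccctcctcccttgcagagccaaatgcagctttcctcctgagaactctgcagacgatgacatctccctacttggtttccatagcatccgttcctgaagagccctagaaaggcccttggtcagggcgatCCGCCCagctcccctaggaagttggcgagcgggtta
Rims3: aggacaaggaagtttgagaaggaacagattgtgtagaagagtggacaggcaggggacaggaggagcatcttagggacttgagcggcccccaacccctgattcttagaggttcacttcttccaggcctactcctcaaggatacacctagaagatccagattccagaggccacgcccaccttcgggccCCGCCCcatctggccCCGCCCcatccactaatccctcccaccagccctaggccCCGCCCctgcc
Syt2: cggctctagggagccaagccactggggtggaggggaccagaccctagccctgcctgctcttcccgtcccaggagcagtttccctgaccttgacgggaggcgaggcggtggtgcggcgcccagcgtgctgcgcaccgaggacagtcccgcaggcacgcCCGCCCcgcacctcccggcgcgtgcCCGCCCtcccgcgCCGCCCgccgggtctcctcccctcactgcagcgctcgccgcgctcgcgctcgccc
Syn1: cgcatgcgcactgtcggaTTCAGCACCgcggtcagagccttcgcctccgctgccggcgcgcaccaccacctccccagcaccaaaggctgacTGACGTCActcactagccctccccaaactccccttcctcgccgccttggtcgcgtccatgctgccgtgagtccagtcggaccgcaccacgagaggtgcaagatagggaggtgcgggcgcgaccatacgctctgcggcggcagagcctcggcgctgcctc
The windows of Slc17a6, Rims3 and Syt2 hold 1, 3 and 3 GC boxes. The Syn1 window holds none. In the same first set Syn2 and Synj1 have a window with a GC box, and Dnm1 and Nsf do not, so Syn1 does not stand for that set. The Syn1 window was the only 1 of the members' 53 windows with TGACGTCA, found in 1.55% of all windows. It was also the only 1 with TTCAGCACC, found in 0.301% of all windows on either strand.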

How the data were processed

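Hippocampal RNA of 8 sleep-deprived and 9 undisturbed mice was measured on Affymetrix arrays, 1 animal per array. The deposited values are log2 signals per probe set, normalized with RMA, with affy among the tools in the submitters' processing notes. Their span of 2.90 to 14.8 was taken to mean base 2, with versions and filters not given in the sources used here and no scan dates used. RMA brings array distributions close together, so a shift common to most genes can be hidden, and dim probe sets show compressed differences. The deposited distributions were not fully equal, with array medians from 6.14 to 6.22.

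Of 45101 probe sets 64 controls were left out. Symbols came from the platform annotation, with 34945 probe sets carrying 1 symbol, 932 several and 9160 none. All 52 measured members matched RefSeq by Entrez identifier. Each gene took its brightest probe set. Groups came from the sample labels. Group means were compared with lmFit and eBayes of limma 3.58.1 (R 4.3.3), with Benjamini-Hochberg adjustment over 18193 genes, or over 45037 probe sets, at 0.05. Other probe sets were tested against the brightest as 16752 within-array differences. The fit was tested on simulated data. Correlations used 100000 permutations within groups (Python 3.11.15, numpy 2.4.6).

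The members and gene lists were chosen with earlier results of these data known. Named were called members, members with a called probe set, 17 core genes whatever their values, and up to 4 called genes per pathway list. Pclo, Syt9, Syt13, Unc13c, Rph3a, Sytl4, Sv2c, Nsf, Synj1, Syn2, Rims3, Vamp1, Rph3al, Doc2g, Sytl1 and the members given at the ends of ranges were named after their values were seen. Alternatives were other scalings, probe set rules, tests, covariates, thresholds, a replicate block and each array left out. Leaving out the 4 arrays rich in choroid plexus markers was added after seeing the data.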

Additional observations from a re-analysis of the deposited data

Results flagged for a closer look

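A single array lay far from the other arrays of its group in 12 of 126 sets of arrays examined, where chance gives about 1 in 20. In 8 of the 12 the array was sleep-deprived replicate 5. Its 3' minus 5' control signal was 0.417, against at most 0.264 in the other sleep-deprived arrays. It was the lowest sleep-deprived array for Syn1 (11.96, next 12.37), Syn2 (11.60, next 11.88), Synj1 (12.30, next 12.59), Pclo (10.71, next 10.94), Rph3a (10.95, next 11.16), Amph (11.38, next 11.53) and Cplx2 (12.40, next 12.50). The part of RNA quality in these low values was not tested.

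Sleep-deprived replicate 2 was lowest for Vamp4 (10.38, next 10.64) and Rab3c (11.66, next 11.87). Undisturbed replicate 8 was lowest for Vamp4 (10.42, next 10.57) and Syt4 (9.71, next 10.04).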

How the results depend on the processing

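Sytl2 was called in all alternatives run (-0.45 to -0.39, limma or rank-sum adjusted p up to 0.011). Of the 3 members called, 1 remained at a threshold of 0.01 and 1 without the 4 arrays rich in choroid plexus markers, and leaving out 1 array gave 2 to 4. Doc2b also lost its call with the most variable probe set (adjusted p = 0.051). Pclo was called with median centring, low-signal genes left out, trend and robust options, the rank-sum test, the RNA quality covariate and the replicate block (adjusted p = 0.016 to 0.046). Called member probe sets were 3, and 5 under quantile normalization, cyclic loess and the replicate block, and 1 to 4 with 1 array left out, with 1 without undisturbed replicate 3 or 6 or sleep-deprived replicate 2, 3 or 7. Probe sets differing from the brightest were 1, and 1 to 2 with 1 array left out.

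Called pathway genes were 4, and 8 with low-signal genes left out, 1 with the mean of all probe sets, 2 with the most variable probe set, 0 by the rank-sum test, 7 with the replicate block, 1 without the 4 arrays, and 0 to 7 with 1 array left out. The causes were not tested. No direction of a called gene reversed. Over all genes 185 instead of 723 were called without the 4 arrays. The main comparison did not pair animals by replicate number. Deviations of same-numbered arrays correlated at -0.16 to 0.39, over 0.1 in 3 of 8 pairs. They were not set against differently numbered arrays, so whether the numbers pair the animals was not tested. With the replicate block 4 members (Pclo added) and 913 genes were called. Dim members such as Sv2c, Sytl4 and Syt6 lie near the signal of genes of other organs, and differences there are compressed.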
